A study of Mus musculus with 4 samples.

Results

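Trp53, the mouse gene of the p53 protein, and 9 of its direct target genes were followed through 4 sorted populations of mouse embryonic stem cells. The genes were chosen by name: Trp53, Mdm2, Cdkn1a, Pmaip1, Ccng1, Bax, Trp53inp1, Aen, Phlda3 and Bbc3. All 10 had a row in every library, out of 24190 gene symbols listed, and 36 of the 58853 listed transcripts belonged to them. Values are TPM, the share of transcripts after correction for their length, summed over the listed transcripts of a gene.

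The cells were E14 (ES-E14TG2a), a male embryonic stem cell line, kept in serum-free N2B27-based medium with 0.8 µM PD0325901, which inhibits MEK, and 3.3 µM CHIR99021, which inhibits GSK3β. A stably integrated Zscan4c promoter drove GFP alone in one clonal line (the GFP line) and a GFP-Zscan4c fusion in the other (the GFP-Zscan4c line, called the fusion line from here on). Flow cytometry split each line into GFP-negative cells, labelled pluripotent, and GFP-positive cells, labelled 2C-like after the 2-cell embryo; they are called negative and positive cells from here on. Each population is 1 library, so values have no replicate error, and line, clone and construct cannot be told apart. Where 4 values are given in a row, the negative and positive cells of the GFP line come before those of the fusion line.

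p53 is a transcription factor that accumulates and binds DNA when DNA is damaged or cells are stressed. It is held low by Mdm2, an enzyme that marks it for destruction and is itself a p53 target, so the pair forms a feedback loop. Its other targets stop the cell cycle, chiefly through Cdkn1a (p21), or favour cell death through proteins of the Bcl2 family such as Bax, Bbc3 (Puma) and Pmaip1 (Noxa). Mouse embryonic stem cells are known for abundant Trp53 RNA and protein and a short G1 phase.

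The binding site of p53 is a pair of 10-base half-sites in tandem. The windows searched ran from 250 bases before to 50 bases after each RefSeq start on GRCm38.p6, and 8 of the 10 members had at least 1 such window, 12 in all. The search took the p53 consensus half-site by its name, written as 2 copies with no bases between them. The bases C and G at the core of each half-site were kept, and up to 1 mismatch was allowed elsewhere. The pattern is its own reverse complement, so 1 scan covers both strands, and the allowance was set after the windows had been read. Such a site lay in 22 of 32851 windows of all genes (0.0670%), among them 1 window of Cdkn1a and 1 of Ccng1, both arrest targets, and 0 windows of the other members. With 2 mismatches the share was 0.326% (107 windows), and no further member had a match. These are the sites, shown because p53 acts through sequences of this form, with the 20 matching bases in capitals.
Cdkn1a, chr17:29090888-29090975, plus strand: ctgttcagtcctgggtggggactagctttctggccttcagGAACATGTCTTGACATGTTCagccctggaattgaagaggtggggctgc
Ccng1, chr11:40755422-40755521, minus strand: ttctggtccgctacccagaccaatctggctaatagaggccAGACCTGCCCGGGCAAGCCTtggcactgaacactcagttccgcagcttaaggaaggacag
The Cdkn1a match begins 51 bases before the distal of its RefSeq starts, and the Ccng1 match 195 bases before its start. Both lie outside the exons that GENCODE M21, of the same build, gives for these genes. No match in a window says only that these letters are not in that window.

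The sort separated the 2C-like markers, and 1 library stood apart. All 10 of 10 2C-like markers (5 Zscan4 genes, Tcstv1, Tcstv3, Duxf3, Zfp352 and Tmem92) were 2-fold or more higher in positive cells of each line, their summed level being 12.2, 1114, 11.5 and 2069 TPM. The 8 pluripotency markers summed to between 2866 and 3528 TPM in every library, with Pou5f1 the largest share. Within that list Tbx3 was higher in positive cells of both lines (29.1, 101, 32.0 and 102 TPM), and Klf4 had log2 ratios of -1.42 and 1.54. Of the 24190 symbols, 48.4% were listed at 0 in negative cells of the GFP line and between 11.6% and 19.5% in the other libraries, so a 0 there is only a listed 0. Among the members' own 36 transcripts, 9 were listed at 0 in that library against 2 to 4 in the others. No member gene was at 0 in any library.

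Of the 10 genes, only Pmaip1 was 2-fold or more apart between positive and negative cells, and it was higher in positive cells of both lines. The other 9 lay between 21.3 and 248 TPM in all 4 libraries, and 8 of the 10 had a highest value under 2 times their lowest, Cdkn1a and Pmaip1 being the exceptions. Ratios are given on the log2(TPM + 1) scale, which understates differences of low genes, and a gene counts as 2-fold apart only if it reached 5 TPM in either library. By that count 1 of 10 members was higher in the GFP line, where 33.2% of 11062 genes were, and 1 of 10 in the fusion line, where 8.23% of 10981 genes were. In both lines together the background was 4.11% of 10245 genes, or 2.4% of those above 0 in every library. No member was 2-fold or more lower in either line or in both, against 7.48% of genes in the GFP line, 3.14% in the fusion line and 0.654% in both. The median log2 ratio of the 10 members was -0.06 for the GFP line and 0.12 for the fusion line, beside 0.19 and 0.14 over all genes counted. Over the genes above 0 in all libraries, as all 10 members are, these medians were -0.0045 and 0.12. In such bulk samples fewer cells of a type and less RNA per cell cannot be told apart.

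Between the lines in positive cells the log2 ratios of the members ran from -0.53 (Bax) to 0.47 (Bbc3). There 0 of 10 were 2-fold or more higher or lower in the fusion line, where 5.71% and 4.05% of genes were. For 10 genes that is near the background. In negative cells 1 of 9 members counted (Cdkn1a) was lower in the fusion line, where 8.49% of genes were, and 0 of 9 were higher, where 30.1% were.

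**Figure D1:**
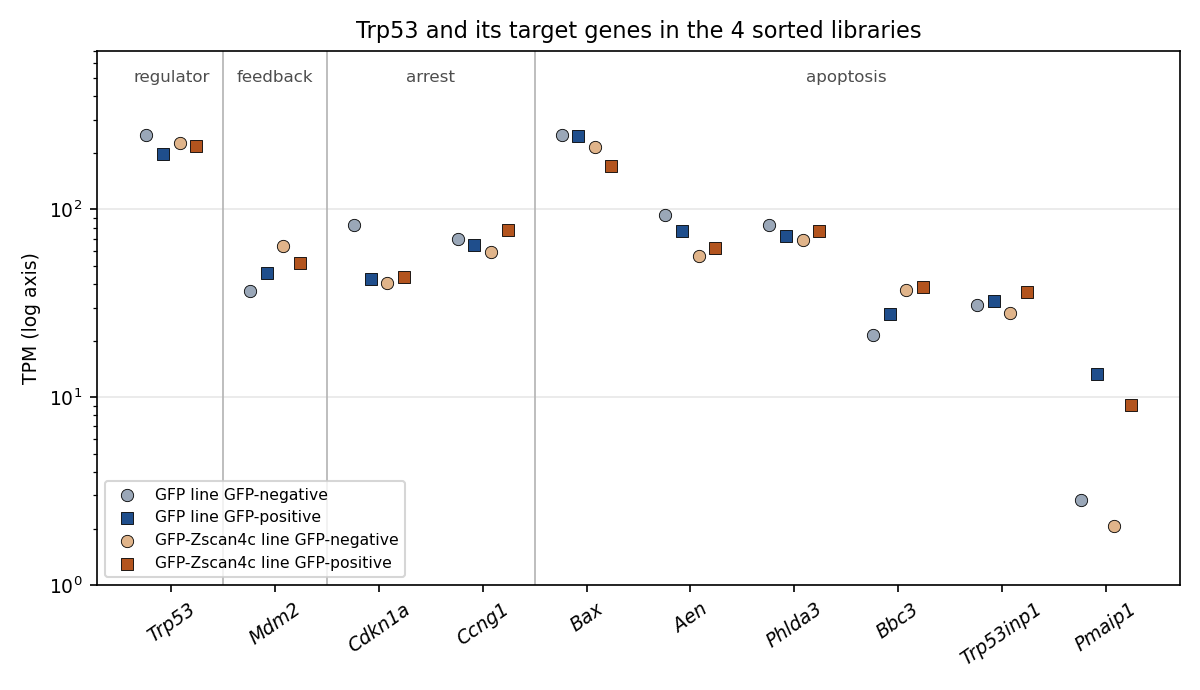
TPM on a log axis for the 10 genes in the 4 libraries, 1 point per library, grouped by role; circles are GFP-negative and squares GFP-positive cells, blue shades the GFP line and orange shades the GFP-Zscan4c (fusion) line. Pmaip1 is the gene whose squares stand well above its circles (13.3 and 9.10 against 2.82 and 2.06 TPM), and Cdkn1a has 1 high point, in negative cells of the GFP line.

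Trp53 itself (chr11:69580359-69591873, plus strand) was abundant and nearly level. In the GFP line negative cells had 248 TPM and positive cells 197 TPM, and in the fusion line 225 and 218 TPM. Both positive values lay below both negative ones, as for 9.46% of all genes, but the highest was only 1.26 times the lowest. The log2 ratios were -0.33 and -0.05. In limma's fit of GFP status and line over 14379 genes, the GFP effect of Trp53 was -0.19 with a standard error of 0.15 and a Benjamini-Hochberg adjusted p of 0.690. Trp53 ranked above 97.6% of all symbols or more in each library, and it was first among the 10 genes in 3 libraries and second to Bax in positive cells of the GFP line.

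The transcripts behind Trp53 show where its value can and cannot be divided. Trp53-203, which encodes 390 codons, had 142, 80.5, 90.8 and 194 TPM. Trp53-201, with 387 codons, had 63.6, 94.5, 103 and 0.240 TPM, so that Trp53-203 took 89.4% of the gene in positive cells of the fusion line and 40.4% to 57.0% elsewhere. The exons of these models share 1771 bases and differ by 1 base at the 3′ end, and their annotated coding parts differ by 9 bases, so the 2 models have almost no sequence to tell them apart. Trp53-206, which carries 96 further exon bases and encodes 381 codons, had 19.2, 3.79, 2.34 and 22.1 TPM. It was high in 1 negative and 1 positive library, so the sort did not separate it.

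Mdm2 (chr10:117688875-117710758, minus strand), the E3 ubiquitin ligase that limits p53, went in opposite directions in the lines. It had 36.8 TPM in negative and 46.2 TPM in positive cells of the GFP line, and 64.3 and 52.0 TPM in the fusion line. The lowest and the highest value were both in negative cells, and the log2 ratios were 0.32 and -0.30. The effect over both lines in limma was 0.01 (standard error 0.26, adjusted p = 0.996). Per Trp53 transcript, Mdm2 stood at 0.148, 0.234, 0.286 and 0.239, lowest where Trp53 was highest.

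The low Mdm2 value came with a different set of transcripts. Mdm2-201, the 489-codon model of the full-length ligase, was listed at 0 in negative cells of the GFP line and had 12.1, 33.4 and 13.3 TPM in the other libraries. Mdm2-209, a model annotated as subject to nonsense-mediated decay, had 0, 20.4, 18.6 and 24.7 TPM. In negative cells of the GFP line the leading models were instead Mdm2-206 (14.0 TPM) and Mdm2-204 (12.5 TPM), non-coding models of 683 and 919 bases, which did not pass 2.35 TPM elsewhere. In positive cells of the lines Mdm2-201 made up 26.2% and 25.6% of the gene, against 52.0% in negative cells of the fusion line. Full-length Mdm2 was thus above 0 on both sides of the sort in the fusion line alone, where negative cells had 33.4 TPM and positive cells 13.3 TPM.

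**Figure D2:**
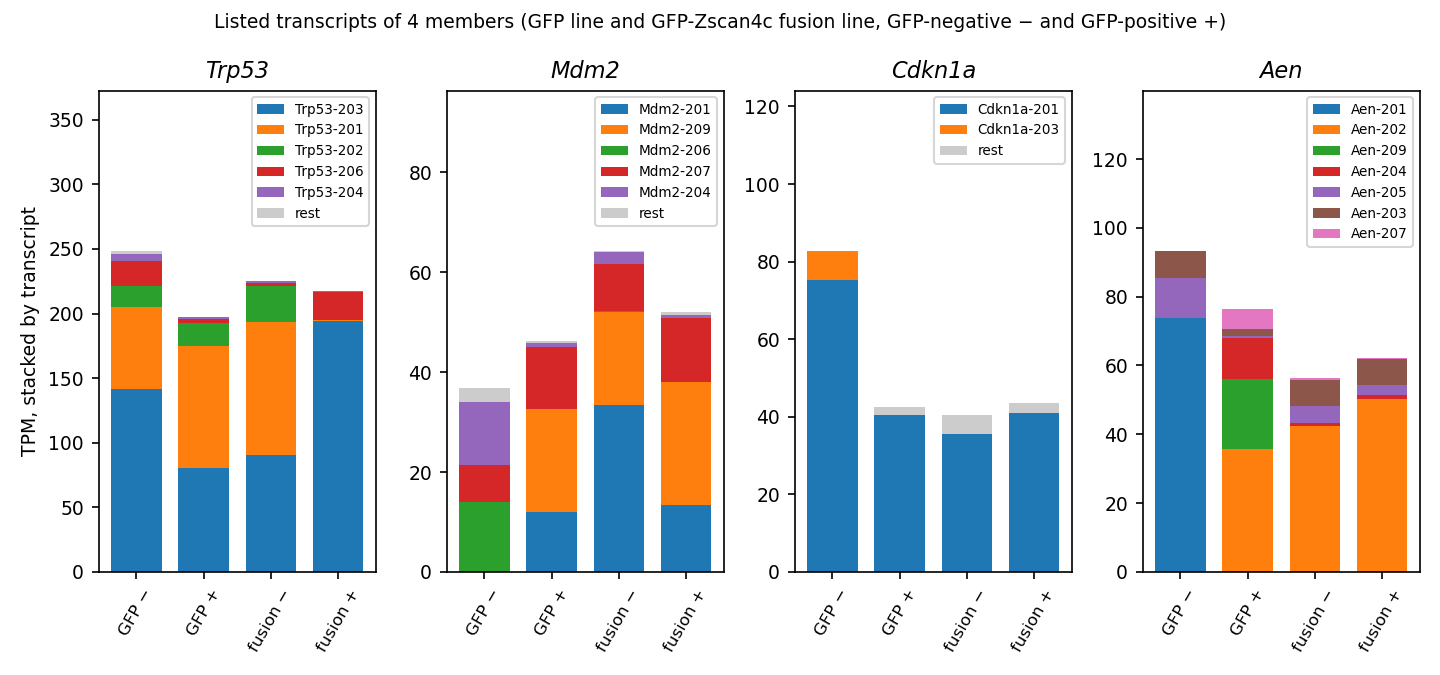
TPM of the listed transcripts of Trp53, Mdm2, Cdkn1a and Aen, stacked from 0, in each line (GFP or fusion; − GFP-negative, + GFP-positive); models that never reached 5 TPM are pooled as rest. Negative cells of the GFP line have models that the others hardly list (Mdm2-206, Aen-201), and Trp53-203 fills nearly all of Trp53 in the last bar.

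Of the arrest targets, Cdkn1a (chr17:29090976-29100727, plus strand), the cyclin-dependent kinase inhibitor p21, differed in 1 library. It had 82.7 TPM in negative and 42.6 TPM in positive cells of the GFP line, and 40.4 and 43.5 TPM in the fusion line. Negative cells of the GFP line were high and the other 3 libraries lay between 40.4 and 43.5 TPM. The log2 ratio was -0.94 in the GFP line, short of 2-fold, and 0.11 in the fusion line, where median-ratio scaling turned it to -0.05 and quantile normalization to -0.04. The comparison that passed 2-fold was between the lines in negative cells, with a log2 ratio of -1.02 for the fusion line. With median-ratio scaling it was -0.87, and it then missed the threshold. The high library is the one with the excess of zeros, and whether that bears on Cdkn1a was not tested. The effect over both lines in limma was -0.42 (standard error 0.34, adjusted p = 0.695).

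Nearly all Cdkn1a TPM was assigned to the model with the proximal start, and little to the model that begins beside the p53 site printed above. Cdkn1a-201, which begins 2790 bases downstream of the distal start, had 75.3, 40.5, 35.5 and 41.0 TPM and held 87.9% to 95.0% of the gene. Cdkn1a-202, which begins at the distal start, was listed at 0 in negative cells of the GFP line and had 2.08, 4.85 and 2.54 TPM in the other libraries. Its highest level was in negative cells of the fusion line. Cdkn1a-201 and Cdkn1a-202 share 799 exon bases, with 1114 only in the former and 123 only in the latter. They also end at different positions, so the split does not measure the use of the starts alone. Cdkn1a-203, which starts inside the gene, had 7.41 TPM in negative cells of the GFP line and at most 0.0625 TPM elsewhere. All 3 models encode the same 159 codons, and the excess of negative cells of the GFP line lay mainly on Cdkn1a-201.

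Ccng1 (chr11:40748552-40755311, minus strand) encodes cyclin G1, which brings a phosphatase to Mdm2, and is counted here with the arrest targets. It had 70.0 TPM in negative and 64.4 TPM in positive cells of the GFP line, and 59.5 and 77.8 TPM in the fusion line. Lowest and highest both fell in the fusion line, and the log2 ratios were -0.12 and 0.38. Only 1 transcript is listed for it. Between the lines in negative cells its log2 ratio was -0.23. Its window and that of Cdkn1a each hold a match with 1 mismatch, and whether either match bears on these values was not tested.

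Among the apoptosis targets, Pmaip1 was the lowest in level and the only one 2-fold apart across the sort. Pmaip1 encodes Noxa, a small BH3-only protein that binds and neutralizes Mcl1. It had 2.82 TPM in negative and 13.3 TPM in positive cells of the GFP line, and 2.06 and 9.10 TPM in the fusion line. Both positive values lay above both negative ones, as for 34.6% of all genes, with log2 ratios of 1.90 and 1.72. The lines differed from each other by less than that, with log2 ratios of -0.32 in negative and -0.50 in positive cells. A smaller ratio of 1.72 or more in both lines was reached by 263 of 10245 genes (2.57%). Its single listed transcript was above 0 in every library. Mcl1 itself, the partner of Noxa, had 313, 239, 200 and 241 TPM, with no common direction in the lines.

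The size of the Pmaip1 difference depends on how low values are handled. It was under 5 TPM in both negative libraries and so entered the count only through the libraries where it was high. Of the 492 genes that entered in the same way, 304 (61.8%) were 2-fold or more higher in both lines, and 59.8% of those above 0 in every library were. With a pseudocount of 5 TPM the log2 ratios were 1.23 and 0.997, and quantile normalization gave 0.79 in the GFP line and 1.49 in the fusion line. Set against negative cells of the fusion line, a choice made after seeing the zeros, positive cells of the GFP line gave 2.22. In limma the effect was 1.81 (standard error 0.85, unadjusted p = 0.110, adjusted p = 0.683), higher in 2 of 2 lines, and it did not pass.

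Of the markers of other cells, some were higher in positive cells of both lines, as Pmaip1 was, and others were not. Of the fibroblast and feeder list 4 of 6 had a row, summing to 310, 202, 8.28 and 186 TPM, nearly all of it Vim, with Col1a1 and Col1a2 at 0.114 TPM or less. Thy1 of that list was listed at 0 in both negative libraries and had 11.9 and 7.27 TPM in positive cells. Of the primitive endoderm list 5 of 8 had a row, summing to 249, 211, 155 and 36.8 TPM, nearly all of it Sparc. Sox7 and Foxa2 were at 0.207 TPM or less, and Gata4 had 0, 1.64, 0 and 2.13 TPM. Of the trophectoderm list 5 of 8 had a row, summing to between 21.9 and 27.2 TPM, with Elf5 at 0.0452 TPM or less and Eomes at 0, 2.64, 0 and 3.42 TPM. Tead4 of that list was lower in positive cells of both lines (27.2, 5.39, 21.7 and 13.5 TPM), Krt8 had 0, 8.51, 0 and 0 TPM, and Krt18 had 0, 5.34, 5.42 and 5.74 TPM. The part of such cells in the Pmaip1 difference was not tested.

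Bax and Bbc3 act at the mitochondrion with Pmaip1, and neither was 2-fold apart across the sort. Bax (chr7:45461697-45466898, minus strand), which forms pores in the outer mitochondrial membrane, had 248 and 247 TPM in the GFP line and 216 and 171 TPM in the fusion line, negative cells first. It was level in the former and lower in positive cells of the latter, with log2 ratios of -0.01 and -0.33. The sign in the GFP line turned under median-ratio scaling and quantile normalization. Bbc3 (chr7:16308393-16318205, plus strand), which encodes Puma, a BH3-only protein that binds the pro-survival Bcl2 proteins, had 21.3 and 27.6 TPM and then 37.4 and 38.7 TPM. The log2 ratios of Bbc3 were 0.36 and 0.04, both above 0 as for Pmaip1 but smaller. In the fusion line the sign turned under median-ratio scaling (-0.11), quantile normalization (-0.11) and with 1 transcript per gene (-0.82). Both Bbc3 values of the fusion line lay above both of the GFP line, and the sort did not separate them. The share of all genes with such an order by line was not counted. A retained-intron model, Bbc3-203, held 32.3%, 55.1%, 22.2% and 38.8% of Bbc3. Bbc3-201, which encodes 193 codons, had 7.73, 11.1, 25.5 and 14.0 TPM, higher in positive cells of the GFP line and lower in those of the fusion line. The ratio of Pmaip1 to Bbc3 was 0.132, 0.481, 0.0551 and 0.235, higher in positive cells of each line. That restates the values of these genes and is no separate result.

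The remaining apoptosis targets differed little. Aen (chr7:78895854-78911209, plus strand) encodes a nuclease that acts in p53-dependent death, and it had 93.3, 76.4, 56.3 and 62.3 TPM. Both values of the GFP line lay above both of the fusion line, an order whose share over all genes was not counted. The log2 ratios were -0.28 and 0.14. Its leading model was Aen-201 (73.9 TPM) in negative cells of the GFP line and Aen-202 (35.7, 42.4 and 50.2 TPM) in the others, each listed at 0 where the other led. Phlda3 (chr1:135766119-135769136, plus strand), an inhibitor of Akt signalling, had 83.1, 72.3, 69.1 and 77.1 TPM, the narrowest range of all 10 genes at 1.20 times. Trp53inp1 (chr4:11156431-11174379, plus strand), a stress protein that promotes p53 phosphorylation, had 31.0, 32.7, 28.0 and 36.1 TPM. Both positive values of Trp53inp1 lay above both negative ones, but by 1.29 times at most, and its log2 ratios were 0.08 and 0.36. Over the 10 genes, 3 had positive and negative values that did not overlap (Trp53, Pmaip1 and Trp53inp1). The values of 44.1% of all genes likewise did not overlap.

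**Figure D3:**
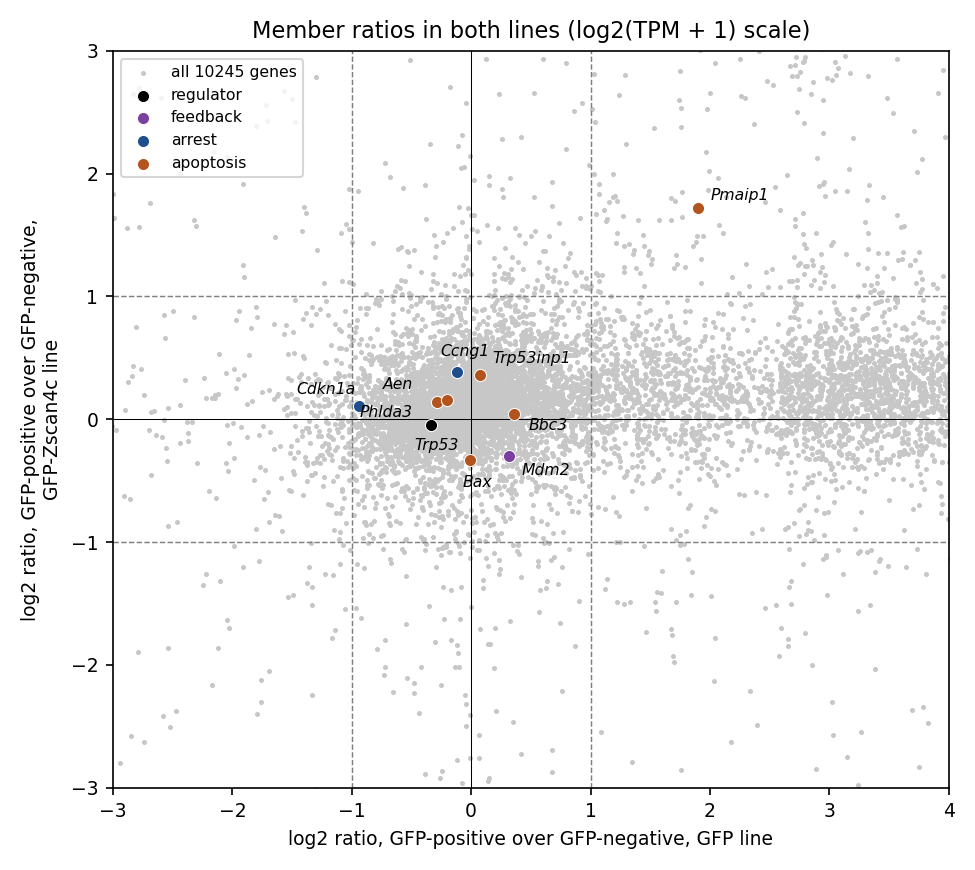
Log2 ratios of GFP-positive over GFP-negative cells in the GFP line (x axis) and the fusion line (y axis) on the log2(TPM + 1) scale, for all 10245 genes counted in both lines (grey; 952 lie outside the axes) and the 10 genes by role; dashed lines mark 2-fold. Pmaip1 stands at 1.90 and 1.72, and the other 9 genes lie inside the central square, with Cdkn1a near its left edge.

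Set side by side by median log2 ratio, the arrest targets lay below the apoptosis targets in the GFP line and above them in the fusion line. The single genes of the classes overlapped. In the GFP line Ccng1 (-0.12) lay above Aen (-0.28) and Phlda3 (-0.20). In the fusion line Cdkn1a (0.11) lay below Aen (0.14), Phlda3 (0.16), Trp53inp1 (0.36) and Pmaip1 (1.72). The order of the medians in the fusion line rested on Ccng1. In the GFP line the low arrest median came mainly from Cdkn1a (-0.94), whose high value is in the library with the excess of zeros. Ccng1 had -0.12 in that line, and no alternative left Cdkn1a out. The median log2 ratio of the 2 arrest targets was -0.53 for the GFP line and 0.24 for the fusion line. For the 6 apoptosis targets it was 0.03 and 0.15, with 3 of 6 and 5 of 6 above 0, beside medians of -0.0045 and 0.12 over all genes above 0 in every library. With Ccng1 left out the arrest median was -0.94 and 0.11, below the apoptosis median in both lines. With Trp53inp1 and Phlda3 left out the apoptosis median was 0.18 and 0.09, on the same sides of the arrest median as before. In summed level the arrest targets had 153, 107, 99.9 and 121 TPM. The apoptosis targets had 480, 469, 408 and 395 TPM, of which Bax made up 43.4% to 52.8%. The ratio of apoptosis to arrest sums was 3.14, 4.39, 4.09 and 3.25, higher in positive cells of the GFP line and lower in those of the fusion line. Without Bax it was 1.52, 2.08, 1.93 and 1.84, with the same directions. Pmaip1 contributed little to these sums, since it was the lowest of the 10 genes in every library.

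Upstream of Trp53, a list of 17 regulators (modifying enzymes, kinases and cofactors of p53) had mixed values, and all 17 had a row. Of 16 counted in each line, 6 were 2-fold or more higher and 1 lower in positive cells of the GFP line, and 2 were higher and 0 lower in the fusion line. Over all genes 33.2% were higher and 7.48% lower in the former, and 8.23% and 3.14% in the latter, so these counts are near the background. With only the regulators above 0 in all libraries the 6 became 3, and over the alternatives the 2 ranged from 0 to 3. The higher ones in the fusion line were named after their values were seen. They were Atm, the kinase of the double-strand break response (4.4, 7.80, 2.19 and 6.4 TPM), and Huwe1, a ubiquitin ligase (71.6, 82.2, 34.3 and 76.2 TPM). None was 2-fold apart in the same direction in both lines. The largest mean ratios included Ppm1d, the Wip1 phosphatase that reverses p53 phosphorylation (0, 11.0, 9.66 and 13.5 TPM), and Hipk2, a p53 kinase (0, 5.36, 3.52 and 6.0 TPM). Kat5, the Tip60 acetyltransferase (0, 7.94, 16.2 and 11.1 TPM), and Trim24, a ubiquitin ligase for p53 (15.2, 68.7, 59.1 and 79.9 TPM), completed them. In 3 of these 4 the ratio of the GFP line starts from a listed 0. The list's median log2 ratio was 0.26 and 0.20, and quantile normalization turned the former to -0.24.

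Of 31 further p53 targets, 29 had a row and 12 of these were listed at 0 in negative cells of the GFP line. In that line 9 of 22 counted were 2-fold or more higher and 2 lower, and in the fusion line 4 of 25 were higher and 0 lower, beside the same shares of all genes (33.2% and 7.48%, then 8.23% and 3.14%). With only the members above 0 in all libraries the 9 became 3 and the 4 became 2, and under quantile normalization the 2 lower became 5. In both lines 2 were 2-fold or more higher, beside 4.11% of all genes. They were Plk2, a polo-like kinase of the stress response (0, 17.7, 7.45 and 22.6 TPM), and Apaf1, the scaffold of the apoptosome (1.48, 12.9, 7.18 and 16.2 TPM), the latter named after its values were seen. The ratio of Plk2 in the GFP line starts from a listed 0. So do those of the other genes with the largest mean ratios, Gtse1, a p53-binding protein of G2 (0, 74.1, 57.3 and 72.3 TPM), Ckap2, a spindle protein (0, 28.7, 24.9 and 35.4 TPM), and Xpc, of nucleotide excision repair (0, 21.8, 16.2 and 21.2 TPM). In the fusion line Gtse1, Ckap2 and Xpc had log2 ratios of 0.33, 0.49 and 0.37. The list's median log2 ratio was 0.20 for the GFP line and 0.28 for the fusion line, and over its members above 0 everywhere it was -0.17 and 0.25.

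The Bcl2 family, on which Bax, Bbc3 and Pmaip1 act, had 8 members counted in each line out of 12 with a row. In the GFP line 2 were 2-fold or more higher and 1 lower, and in the fusion line 0 were in either direction. Over all genes 33.2% were higher and 7.48% lower in the former, and 8.23% and 3.14% in the latter. With 8 genes counted, these counts are near the background. Over the alternatives the 2 ranged from 1 to 3 and the 1 from 0 to 3. Bak1, which forms pores as Bax does, had 0, 19, 31.9 and 27.9 TPM, and its ratio in the GFP line starts from a listed 0. Bcl2l2, a pro-survival member, had 1.36, 8.90, 5.16 and 10.2 TPM. Bok, a relative of Bax, had 6.30, 2.24, 5.90 and 5.25 TPM, and Bid, which links death receptors to mitochondria, had 36, 24.2, 14.9 and 16.5 TPM. The list's median log2 ratio was -0.27 and 0.11.

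The 18 genes of the G1/S machinery were close to level in the fusion line, with a median log2 ratio of 0.05. Of 15 counted there, 1 was 2-fold or more higher and 0 lower. In the GFP line 5 of 14 were higher and 1 lower, with a median of -0.19. These counts are near the shares of all genes higher in each line (8.23% and 33.2%), and over the alternatives the 5 ranged from 3 to 5 and the 1 higher in the fusion line from 0 to 1. The named genes were Pcna, the replication clamp to which p21 binds (5.57, 205, 133 and 168 TPM), and Ccne1, cyclin E1 (5.92, 58.3, 56.2 and 56.6 TPM). Rbl1 is the pocket protein p107 (1.44, 9.66, 10.1 and 13.7 TPM), and Ccnd3 is cyclin D3 (390, 183, 238 and 161 TPM). For Pcna, Ccne1 and Rbl1 negative cells of the GFP line were low and the other 3 libraries were closer together. These genes were named for their large mean ratios, and that library has 48.4% of symbols listed at 0. Others of the list were highest there, such as Cdk4 (435, 306, 361 and 373 TPM) and Cdk2 (60.5, 49.7, 51.0 and 51.3 TPM). Whether the zeros bear on these values was not tested. Ccnd3 was lower in positive cells of both lines, and in limma its effect was -0.83 (standard error 0.19, adjusted p = 0.478). Of the p53 family, Trp73 had 0, 2.14, 1.75 and 2.11 TPM, too low to be counted.

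**Figure D4:**
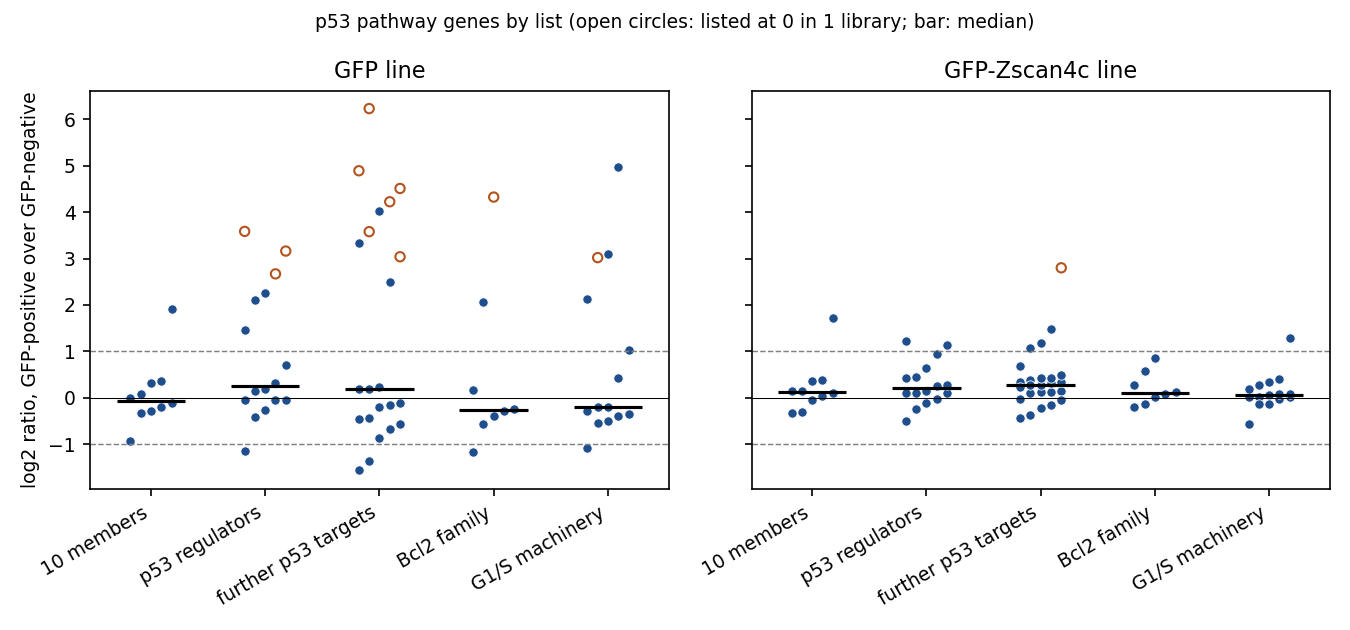
Log2 ratios of GFP-positive over GFP-negative cells, 1 point per gene at 5 TPM or more in either library, for the 10 genes and 4 lists of p53 pathway genes in each line; open circles are genes listed at 0 in 1 of the libraries compared, bars are medians and dashed lines mark 2-fold. An open circle must lie outside the dashed lines, since its gene has 5 TPM or more in the other library. In the GFP line every open circle is on the upper side, the fusion line has 1 open circle, and the 10 genes have none.

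By limma over both lines with Benjamini-Hochberg adjustment over all 14379 genes, 0 of the 10 members passed an adjusted p of 0.05, the smallest being 0.683 for Pmaip1. None of the 10 had an unadjusted p under 0.05, and of the pathway genes on the lists 4 had one and 0 passed. Over all genes 0 passed and 972 had an unadjusted p under 0.05. The fit leaves 1 residual degree of freedom, set by how far the lines disagree. Since the labels do not name separate cultures, p-values cover only the spread between these libraries.

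The genes with the pattern most like Trp53 across the 4 libraries were taken by the smallest distance between log2(TPM + 1) values centred on each gene's mean, among 8316 genes above 0 in all libraries with a mean of 5 TPM or more. They were Usp39 (49.1, 38.2, 44.4 and 42.4 TPM), Rabl6 (45.7, 36.2, 42.1 and 39.4 TPM) and Bard1 (19.4, 14.9, 17.2 and 17.0 TPM), at distances of 0.0184 to 0.0332 log2 units. For Cdkn1a they were Fam110a (13.8, 6.4, 6.30 and 6.95 TPM), Cuta (68.9, 37.6, 34.1 and 36.1 TPM) and Trmt61a (17.7, 8.58, 8.46 and 9.46 TPM), at 0.0573 to 0.0729. Each shares with Cdkn1a the high value in negative cells of the GFP line alone. With 4 libraries such likeness is a description only.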

How the data were processed

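Poly-A RNA of 4 sorted populations was sequenced, 1 library each. The deposited tables hold TPM per Ensembl transcript. Per the submitters' processing notes, the authors used CASAVA, HISAT2 2.1.0 and StringTie 1.3.5 with GRCm38 (mm10); options and annotation release were not given in the sources used here. The listed TPM come to 66.6% to 69.1% of a whole library. TPM keep no counts, so depth is unknown. TPM were summed per symbol. Ratios used log2(TPM + 1); a gene needed 5 TPM in 1 of the 2 libraries to be counted, and no test was made. limma 3.58.1 in R 4.3.3 (trend, robust, two-sided) modelled GFP status plus line for genes that reached 1 TPM in 2 libraries, and was checked on simulated data. Models and positions are from GENCODE M21. Promoter windows are RefSeq's on GRCm38.p6, matched for 8 of 10 symbols. Cop1 was matched through its older symbol.

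The members and lists were chosen with earlier results of these data known. Named genes were all 10 members, up to 4 genes per pathway list by largest absolute mean ratio among those counted in both lines, and 3 genes most like each of Trp53 and Cdkn1a. Alternatives covered pseudocount, scaling, filters, transcript choice, class membership and left-out libraries.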

Additional observations from a re-analysis of the deposited data

Results flagged for a closer look

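Of the 10 genes, 5 had log2 ratios of opposite sign in the lines, as 38.2% of all 10245 genes counted in both lines did. The difference between the lines, fusion line minus GFP line, was 1.05 for Cdkn1a (-0.94 and 0.11), -0.62 for Mdm2 (0.32 and -0.30), 0.50 for Ccng1 (-0.12 and 0.38), 0.43 for Aen (-0.28 and 0.14) and 0.36 for Phlda3 (-0.20 and 0.16). With 1 library per population these differences were not tested. For Cdkn1a, Aen and Phlda3 the sign in the fusion line itself depended on the scaling: under median-ratio scaling it was -0.05, -0.01 and -0.00097. For Cdkn1a, Aen and Phlda3 the highest of the 4 values, and for Mdm2 the lowest, was in negative cells of the GFP line, the library with 48.4% of symbols listed at 0. Positive cells of the GFP line were also set against negative cells of the fusion line, a choice made after seeing the zeros. The log2 ratios were then 0.08 for Cdkn1a, -0.47 for Mdm2, 0.11 for Ccng1, 0.43 for Aen and 0.06 for Phlda3. All 5 then had the sign of the fusion line, whose ratios use the same negative library.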

How the results depend on the processing

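Depth is unknown and each population is 1 library, so the counts rest on single values. The number of members 2-fold or more higher in positive cells was 1 in each line. It was 0 in the GFP line under quantile normalization, 0 in the fusion line with a pseudocount of 5 TPM, and 3 and 2 when only the transcript with the highest mean was taken, since Mdm2-209 and Aen-202 are listed at 0 in negative cells of the GFP line and Trp53-203 takes most of Trp53 in positive cells of the fusion line. In both lines the count of lower members stayed at 0 under every alternative run. Between the lines in negative cells, the 1 lower member (Cdkn1a) became 0 with a pseudocount of 5 TPM and with median-ratio scaling, and quantile normalization also took Cdkn1a under 2-fold (-0.84) while it put Pmaip1 past it (-1.36). With 1 transcript per gene 3 members were higher there and 1 was higher in positive cells, from 0 in both. The log2 ratio of summed apoptosis targets in the GFP line went from -0.03 to 0.0045 under quantile normalization and 0.14 with 1 transcript per gene, and their median in the fusion line from 0.15 to -0.0074 under median-ratio scaling. The limma count of members was 0 under the scaling, filter and pseudocount alternatives and with no line term. Leaving out 1 library with no line term gave 0 to 2 members, the 2 being Cdkn1a (adjusted p = 0.0310) and Pmaip1 (adjusted p = 0.0436) without the negative cells of the fusion line. That fit called 4591 genes of 13796 and has the library with most zeros as its only GFP-negative one. The line term pairs the negative and positive libraries of a line. The labels give no other pairing. Medians of the pathway lists turned negative in the fusion line under median-ratio scaling and quantile normalization for the Bcl2 family (-0.04 and -0.11) and the G1/S machinery (-0.11 and -0.13), and with 1 transcript per gene the regulators' median in the GFP line was 3.03.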
